A study of Mus musculus with 8 samples.

Results

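The subject was 7 chemokine receptor genes of mouse osteoclast precursor cells: Cx3cr1, Ccr2, Ccr1, Cxcr4, Ccr3, Ccrl2 and Ccr7. They were found by gene symbol in a table of 25124 genes, and all 7 were present. Osteoclast precursor (OCP) cells are macrophage-like cells of bone marrow that grow in M-CSF and fuse into bone-resorbing osteoclasts when RANKL is added. PRDX1 is an antioxidant enzyme that, outside cells, acts as a ligand of the innate immune receptor TLR4. The study asked how extracellular PRDX1 changes gene expression during osteoclast formation, with RNA-seq of 4 groups of 2 cultures each.

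The groups were no PRDX1 + no RANKL (control), PRDX1 + no RANKL, no PRDX1 + RANKL, and PRDX1 + RANKL. PRDX1 was recombinant protein at 200 nM, RANKL was given at 100 ng/mL, and cells were collected after 48 h. All 4 groups, the control included, were unmodified bone marrow cells expanded with M-CSF at 30 ng/mL, and no gene was deleted. The labels gave C57BL/6 mice of 6 to 8 weeks of age, whereas the cell culture methods of the study named ICR mice. Whether the 2 cultures of a group came from separate animals was not given, so each p-value measured only the spread between these cultures.

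Chemokine receptors span the membrane and couple to inhibitory G proteins. A bound chemokine makes the cell crawl up its gradient, and the receptor is then shut off by GRK kinases, arrestins and RGS proteins. In the monocyte and macrophage lineage, Ccr2 draws monocytes out of marrow toward the CC chemokine Ccl2. Cx3cr1 binds the membrane-tethered Cx3cl1 and marks patrolling monocytes and osteoclast precursors. Ccr1 and Ccr3 share several CC ligands, Cxcr4 binds Cxcl12 and retains cells in marrow, and Ccr7 directs mature dendritic cells to lymph nodes. Ccrl2 is an atypical member that binds chemerin without signaling through G proteins.

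Of the 7 genes, 5 lay on chromosome 9, and Ccr1, Ccr3 and Ccr2 were neighbors within 147.01 kb of it in the mm10 build. Ccr1 (NM_009912) was at chr9:123962126-123968692 on the minus strand, Ccr3 (NM_009914) at chr9:124021971-124031689 on the plus strand, and Ccr2 (NM_009915) at chr9:124102183-124109140 on the plus strand. Cx3cr1 (NM_009987) lay at chr9:120048683-120068296 and Ccrl2 (NM_001302377) at chr9:111054834-111057244, both on the minus strand. Cxcr4 (NM_001356509) was at chr1:128588199-128592299 and Ccr7 (NM_001301713) at chr11:99144199-99155077, also on the minus strand. None overlapped another gene of the table. Exact runs shared with other genes of the mouse were sought, since reads of 100 bases can be split between near-identical genes, and values of Ccr2 carry some uncertainty from such sharing. For Ccr1 and Ccr3 the longest shared run was 47 bases, and for Cx3cr1 it was 79.

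Promoters were examined because Ccr1 and Ccr3 moved together across the groups, while Cx3cr1 fell with either agent alone. The 250 bases before the start site were read from RefSeq for build GRCm38.p6, for 6 of the 7 genes. For Ccr7, no promoter window at the start of the transcript counted here was available. For Ccr3, RefSeq's gene record begins further upstream than the transcript counted here, and the window is that of the transcript. Matches on either strand to 5 motifs were sought in these windows. They were the NF-κB consensus, TGANTCA of AP-1, GAGGAA of PU.1, the element of interferon-responsive genes (ISRE) and TTCNNNGAA of STAT factors, where N is any base. In the sequences, written 5′ to 3′ along the gene's strand, capitals mark the matches. The windows are chr9:123968693-123968942 for Ccr1, chr9:124021721-124021970 for Ccr3 and chr9:120068297-120068546 for Cx3cr1.
Ccr1: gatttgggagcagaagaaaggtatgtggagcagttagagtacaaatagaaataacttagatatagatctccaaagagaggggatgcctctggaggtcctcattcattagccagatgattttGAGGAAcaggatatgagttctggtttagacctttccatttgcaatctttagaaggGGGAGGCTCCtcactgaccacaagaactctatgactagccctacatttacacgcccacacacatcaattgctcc
Ccr3: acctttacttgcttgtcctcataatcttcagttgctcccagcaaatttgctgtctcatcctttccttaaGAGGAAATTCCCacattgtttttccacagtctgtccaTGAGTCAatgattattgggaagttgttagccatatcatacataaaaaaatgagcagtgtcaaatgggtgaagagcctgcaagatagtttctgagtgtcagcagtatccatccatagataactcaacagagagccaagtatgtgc
Cx3cr1: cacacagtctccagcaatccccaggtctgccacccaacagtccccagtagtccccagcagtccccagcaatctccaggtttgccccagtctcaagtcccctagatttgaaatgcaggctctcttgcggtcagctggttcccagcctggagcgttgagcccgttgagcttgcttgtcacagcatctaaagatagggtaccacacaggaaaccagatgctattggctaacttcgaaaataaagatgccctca
In Ccr1, an NF-κB match lay at positions -74 to -65 from the start site, where -1 is the base just before it, and a GAGGAA at -129 to -124. In Ccr3, an NF-κB match lay at -179 to -170, overlapping a GAGGAA at -181 to -176, and a TGAGTCA lay at -144 to -138. The windows of Cx3cr1, Ccr2, Cxcr4 and Ccrl2 held 0 matches to the 5 motifs. Among 32851 promoter windows of this length, 7.25% held the NF-κB consensus, 6.75% TGANTCA, 23.3% GAGGAA, 2.98% the ISRE and 7.02% TTCNNNGAA. A match is a run of letters, and binding was not measured here.

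The 8 libraries held 24542578 to 41712973 reads on genes. The unit FPKM is the fragment count scaled by transcript length and library total, which allows levels of different genes to be compared. The sum of 8 macrophage markers was 9729 to 17265 FPKM in every library, led by Lyz2. That of 10 osteoclast markers was at most 45.4 FPKM in the control and 88.1 to 92.4 in PRDX1 + no RANKL. It was at least 1884 in no PRDX1 + RANKL and 251 to 259 in PRDX1 + RANKL. Monocyte markers summed to 62.0 to 224 FPKM, with the highest sums in PRDX1 + no RANKL, but F13a1 was highest in the control, at 43.4 and 32.7 FPKM, and Vcan with RANKL alone, at 17.6 and 16.0. Markers of mast cells and basophils, T and NK cells, and B cells summed to at most 0.167, 0.619 and 2.21 FPKM. Endothelial markers reached at most 5.95 FPKM. In the 4 libraries with PRDX1, stromal markers summed to 16.4 to 19.6 FPKM and neutrophil markers to 34.6 to 44.2, against 8.14 to 10.8 and 8.23 to 16.7 in the 4 without it. Most of the neutrophil sum was S100a8 and S100a9, at 17.3 and 21.5 FPKM in PRDX1 + no RANKL replicate 1. Ly6g had at most 8 reads in any library. The part of these marker genes in the receptor changes was not tested. In bulk RNA, fewer cells of a type cannot be told apart from less RNA per cell.

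**Figure D1:**
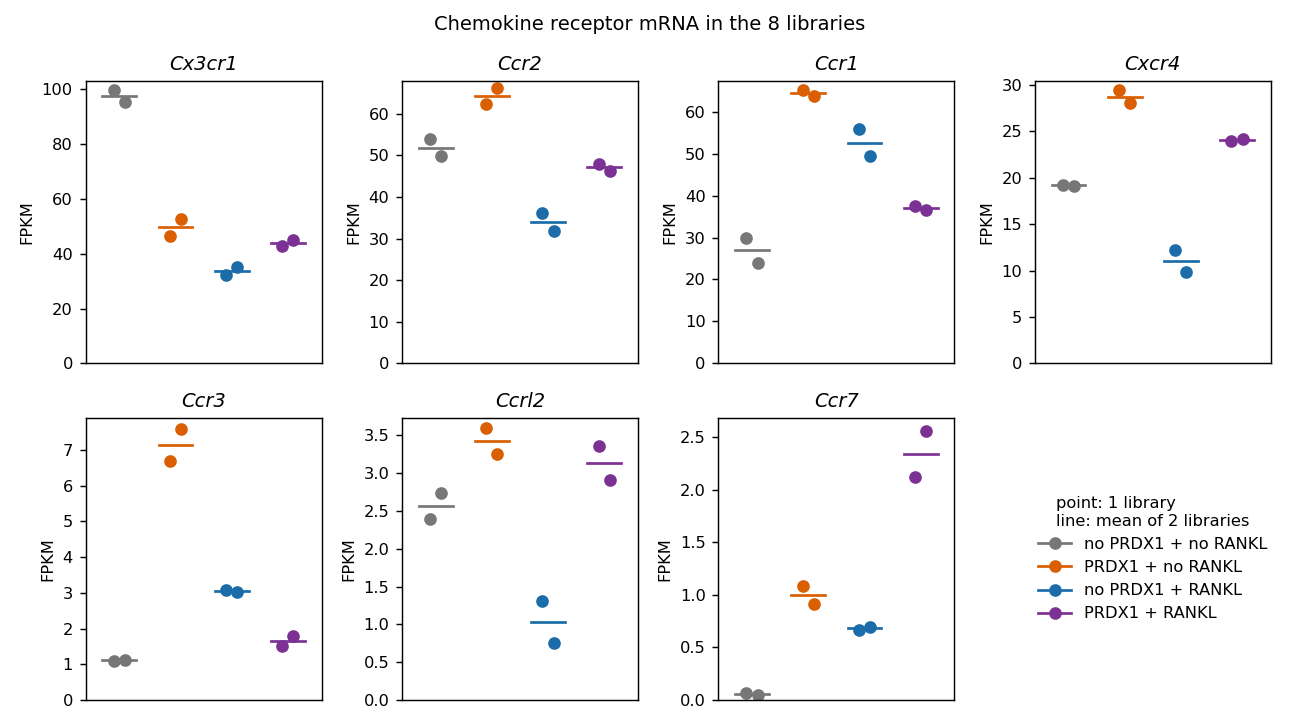
Level of each of the 7 receptor genes in FPKM (vertical axis, from 0) in the 4 groups. Each point is 1 library and each line the mean of 2. Cx3cr1 was highest in the control at 95.2 and 99.6 FPKM, and Ccr1 and Ccr3 were highest with PRDX1 alone.

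A gene was called changed when limma, fitted to log2(FPKM + 1) of 11700 genes, gave a Benjamini-Hochberg adjusted p under 0.05 and the change was 1.5-fold or more on that scale. This scale understates changes of genes with few reads. Each comparison shares a group of cultures with several of the others, so such values are set side by side and are not independent of each other. All 7 receptors passed the filter on low values, a mean of at least 0.5 FPKM, Ccr7 only through the treated groups. Its calls against the control are therefore not independent of the filter. The counts below include Ccr7 among the genes called higher in each comparison of a treated group with the control.

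PRDX1 without RANKL called 4 of the 7 receptors, against 5.79% of all genes tested. It called 3 higher (3.80% of all genes) and 1 lower (1.99%). PRDX1 on top of RANKL also called 4, against 10.2%, with 3 higher (6.03%) and 1 lower (4.17%). RANKL without PRDX1 called all 7, against 21.8%, with 3 higher (11.8%) and 4 lower (9.96%). RANKL with PRDX1 called 3, against 8.50%, with 1 higher (4.52%) and 2 lower (3.98%). The median change of the 7 receptors on the log2 scale was 0.56 for PRDX1 without RANKL and 0.46 with RANKL, beside -0.04 and -0.06 over all genes tested. For RANKL it was -0.60 without PRDX1 and -0.25 with it, beside 0.10 and 0.07 over all genes.

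With both agents, most of the 7 receptors were within 1.5-fold of the control. PRDX1 + RANKL against the control called 2, against 12.8% of all genes, with Ccr7 higher (7.50% of all genes) and Cx3cr1 lower (5.34%). RANKL alone against PRDX1 alone called 4, against 25.1%, with 0 higher (14.3%) and 4 lower (10.7%), which were Ccr2, Ccr3, Cxcr4 and Ccrl2. The test of whether the effect of PRDX1 differed with RANKL, the interaction, called 4, against 8.85%. It was negative for Ccr1 and Ccr3 (4.35% of all genes) and positive for Cx3cr1 and Ccrl2 (4.50%).

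**Figure D2:**
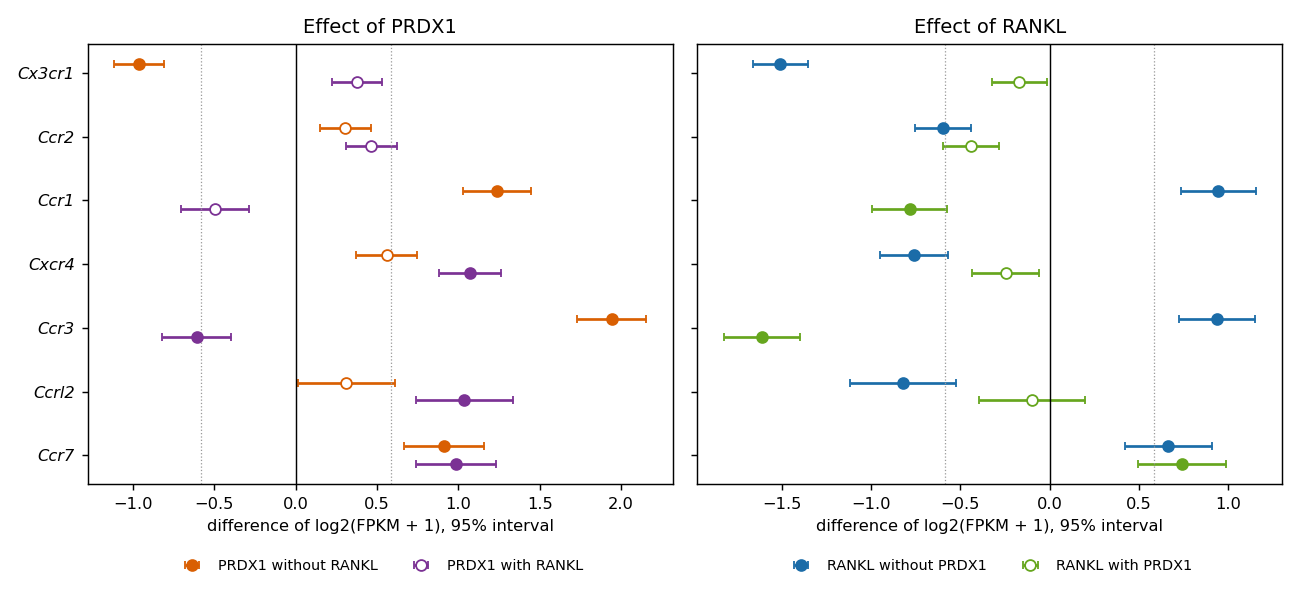
Difference of log2(FPKM + 1) with its 95% interval (horizontal axis) for PRDX1 (left) and RANKL (right), each without and with the other agent. Filled points passed both thresholds, open points did not, and dotted lines mark a 1.5-fold change. The signs of Ccr1 and Ccr3 turn over in both panels.

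Cx3cr1, the fractalkine receptor, was the most abundant of the 7 in the control and fell with either agent. Its level was 99.6 and 95.2 FPKM in the control, 46.5 and 52.8 with PRDX1, 32.2 and 35.1 with RANKL, and 43.0 and 44.8 with both. The control libraries lay above all 6 treated ones, and the RANKL libraries below all others. The log2 change was -0.96 with PRDX1 alone (SE 0.07, adjusted p = 7.11e-06) and -1.51 with RANKL alone (SE 0.07, adjusted p = 4.19e-08).

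With both agents Cx3cr1 stayed below the control, at -1.13 (adjusted p = 6.58e-07), and adding PRDX1 to RANKL gave 0.38 (adjusted p = 0.00159), under the 1.5-fold threshold. The change by PRDX1 therefore had opposite signs without and with RANKL, and the interaction was 1.34 (SE 0.10, adjusted p = 1.14e-05). The 2 groups with PRDX1 did not differ past the threshold, at -0.17 (adjusted p = 0.0736). RANKL alone against PRDX1 alone was -0.55 (adjusted p = 6.11e-05), just under the fold threshold. It passed at -0.65 with quantile normalization, at -0.65 with upper-quartile scaling, at -0.64 without PRDX1 + no RANKL replicate 1, and at -0.61 without no PRDX1 + RANKL replicate 2. The genes nearest to Cx3cr1 in pattern were Bank1, Atp2a3 and Sqle, with root mean square differences of 0.10, 0.12 and 0.12 on the centered log2 scale over the 8 libraries.

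Ccr1, a receptor for Ccl3, Ccl5 and Ccl9 on monocytes and osteoclast precursors, rose with each agent alone, and fell when RANKL was added to PRDX1. It was 30.0 and 24.0 FPKM in the control, 65.3 and 63.7 with PRDX1, 56.0 and 49.3 with RANKL, and 37.5 and 36.6 with both. No group overlapped another, and the combined group lay between the control and either single agent. PRDX1 alone gave 1.23 (SE 0.09, adjusted p = 9.95e-06), a ratio of mean FPKM of 2.39, and RANKL alone 0.94 (adjusted p = 1.23e-05), a ratio of 1.95.

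On top of RANKL, PRDX1 gave -0.49 for Ccr1 (adjusted p = 0.00193), under the fold threshold. On top of PRDX1, RANKL gave -0.78 (adjusted p = 1.29e-04), and the interaction was -1.73 (SE 0.13, adjusted p = 1.61e-05). Both agents against the control gave 0.45 (adjusted p = 0.00320), which passed the fold threshold at 0.61 without no PRDX1 + no RANKL replicate 1. RANKL alone against PRDX1 alone was -0.29 (adjusted p = 0.0200). In the main fit, all neighbors in the order PRDX1, RANKL, both, control thus differed at adjusted p under 0.05 and by less than 1.5-fold. The step from PRDX1 to RANKL did not hold in every alternative, where limma gave an adjusted p of up to 0.0691. It ranged from -0.38 to -0.20 when each library was left out in turn. The nearest patterns were those of Hyal1, Hilpda and Slc6a8, at 0.19, 0.24 and 0.24.

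Ccr3, best known as the eotaxin receptor of eosinophils, followed the same order of groups as Ccr1 at a far lower level. It was 1.10 and 1.13 FPKM in the control, 6.67 and 7.57 with PRDX1, 3.07 and 3.02 with RANKL, and 1.51 and 1.80 with both, from 106 to 874 reads. The groups did not overlap, and PRDX1 alone stood above all others. The change was 1.94 with PRDX1 alone (SE 0.10, adjusted p = 5.62e-07), a ratio of mean FPKM of 6.41, and 0.94 with RANKL alone (adjusted p = 1.49e-05).

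Adding RANKL to PRDX1 lowered Ccr3, with a log2 change of -1.61 (adjusted p = 1.16e-06), and its interaction of -2.55 (SE 0.14, adjusted p = 1.79e-06) was the largest of the 7. PRDX1 on top of RANKL gave -0.61 (adjusted p = 6.12e-04), which did not pass the fold threshold at -0.57 under upper-quartile scaling or at -0.53 without PRDX1 + RANKL replicate 1. RANKL alone against PRDX1 alone was -1.0035 (adjusted p = 7.87e-06), and both agents against the control 0.33 (adjusted p = 0.0187), under the fold threshold. Of 11699 other genes, the nearest in pattern to Ccr3 was Ccr1, at 0.35, followed by Mir7653 and Hilpda, whereas Ccr3 was in place 49 from Ccr1. Mir7653 was near the floor, averaging at most 1.24 FPKM in any group and 0.0 with both agents. The 6 eosinophil markers in the table summed to 0.020 to 1.02 FPKM, highest with both agents, and 0 passed the filter. The eosinophil granule genes Epx, Prg2, Prg3 and Ear6 had at most 2 reads in every library.

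Ccr2, the receptor for Ccl2, Ccl7 and Ccl12, varied least on the ratio scale. Its level was 53.9 and 49.7 FPKM in the control, 62.4 and 66.1 with PRDX1, 36.1 and 31.7 with RANKL, and 47.9 and 46.3 with both. PRDX1 alone was above and RANKL alone below all other libraries, while the combined group lay just under the control. RANKL alone gave -0.60 (SE 0.07, adjusted p = 3.95e-05), which missed the fold threshold at -0.54 without no PRDX1 + no RANKL replicate 1 and at -0.51 without no PRDX1 + RANKL replicate 2.

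PRDX1 gave 0.31 for Ccr2 in cultures without RANKL (adjusted p = 0.00874) and 0.46 when added to RANKL (adjusted p = 4.62e-04), both under the fold threshold. RANKL with PRDX1 gave -0.44 (adjusted p = 7.94e-04), also under it. The interaction was 0.16 (adjusted p = 0.291, 95% interval -0.06 to 0.38), and both agents against the control gave -0.13 (adjusted p = 0.148, 95% interval -0.29 to 0.02). The contrast between the single agents was the largest, at -0.90 (adjusted p = 1.69e-06) for RANKL against PRDX1. Cd300c2, Tle2 and Arhgap12 were nearest in pattern, at 0.037, 0.042 and 0.053. Tle2 averaged at most 1.25 FPKM in any group, a level at which log2(FPKM + 1) understates changes.

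Cxcr4, the receptor for Cxcl12, was higher with PRDX1 and lower with RANKL. It was 19.2 and 19.2 FPKM in the control, 29.5 and 28.1 with PRDX1, 12.2 and 9.80 with RANKL, and 24.0 and 24.2 with both. The 4 libraries with PRDX1 lay above the 4 without it, and RANKL alone below the control. PRDX1 with RANKL gave 1.07 (SE 0.08, adjusted p = 5.86e-06), a ratio of mean FPKM of 2.19, and RANKL alone -0.76 (adjusted p = 2.87e-05).

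PRDX1 without RANKL gave 0.56 for Cxcr4 (adjusted p = 8.88e-04), just under the fold threshold, which it passed at 0.60 under upper-quartile scaling and at 0.59 without PRDX1 + no RANKL replicate 2. RANKL with PRDX1 gave -0.25 (adjusted p = 0.0408), and both agents against the control 0.31 (adjusted p = 0.0137), both under the fold threshold. RANKL alone against PRDX1 alone was -1.32 (adjusted p = 4.58e-07). The interaction of 0.51 (adjusted p = 0.0122) was under the fold threshold too and passed it at 0.66 without no PRDX1 + RANKL replicate 1. Phf11b, Clec4d and AA414768 were nearest, at 0.074, 0.081 and 0.092.

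Ccrl2, the atypical chemerin receptor, fell with RANKL alone, and PRDX1 raised it in the presence of RANKL. Its level was 2.40 and 2.74 FPKM in the control, 3.59 and 3.25 with PRDX1, 1.31 and 0.757 with RANKL, and 3.36 and 2.92 with both, from 46 to 273 reads. RANKL alone was below all other libraries, and the ranges of the 2 groups with PRDX1 overlapped. RANKL alone gave -0.82 (SE 0.13, adjusted p = 3.99e-04), and PRDX1 on top of RANKL gave 1.04 (SE 0.13, adjusted p = 1.64e-04).

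Ccrl2 changed by 0.31 with PRDX1 alone (adjusted p = 0.110, 95% interval 0.01 to 0.61), by -0.10 with RANKL on top of PRDX1 (adjusted p = 0.597, 95% interval -0.39 to 0.20) and by 0.21 with both agents against the control (adjusted p = 0.222), and none of these passed. RANKL alone against PRDX1 alone was -1.13 (adjusted p = 3.59e-05). The interaction of 0.73 (SE 0.19, adjusted p = 0.0201) was lost in several alternatives. Its adjusted p was 0.0762 with no filter on low values, 0.0684 without no PRDX1 + no RANKL replicate 2, 0.0660 without PRDX1 + no RANKL replicate 2 and 0.0753 without PRDX1 + RANKL replicate 1. Without no PRDX1 + RANKL replicate 2 it was 0.53, under the fold threshold. Phf11b was nearest to Ccrl2, at 0.093, then Cxcr4, at 0.11, and Ms4a6c, at 0.11, while Ccrl2 was in place 8 from Cxcr4.

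Ccr7, the receptor for Ccl19 and Ccl21, rested on few reads in the control and was highest with both agents. It was 0.070 and 0.050 FPKM in the control, 1.08 and 0.914 with PRDX1, 0.668 and 0.693 with RANKL, and 2.12 and 2.56 with both. These values came from 4 and 4 reads in the control, 65 and 62 with PRDX1, 35 and 46 with RANKL, and 188 and 206 with both, and no group overlapped another. PRDX1 gave 0.91 without RANKL (SE 0.11, adjusted p = 2.03e-04) and 0.99 with RANKL (SE 0.11, adjusted p = 6.22e-05).

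Ccr7 was the only one of the 7 that rose in all 4 of the single-agent comparisons, since RANKL gave 0.66 without PRDX1 (adjusted p = 4.66e-04) and 0.74 with PRDX1 (adjusted p = 5.27e-04), and both agents against the control gave 1.65 (adjusted p = 1.24e-06). RANKL alone without PRDX1 missed the fold threshold at 0.49 under quantile normalization. The single agents did not differ past the threshold, at -0.25 for RANKL against PRDX1 (adjusted p = 0.0715). With voom on the recovered reads, which adds no 1 FPKM, PRDX1 gave 3.92 for Ccr7 without RANKL and 1.75 with it, and both agents 5.16. The interaction was 0.08 (adjusted p = 0.786) on log2(FPKM + 1) but -1.14 (adjusted p = 0.0382) with a pseudocount of 0.1 and -2.18 (adjusted p = 0.00480) with voom, so its sign depended on the scale.

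Some dendritic cell markers followed the order of Ccr7 and others did not. Fscn1 did, at 0.622 and 0.981 FPKM in the control, 2.07 and 1.47 with RANKL, 2.51 and 2.88 with PRDX1, and 4.33 and 3.49 with both. Of 8 in the list, 4 passed the filter, and the sum over the whole list was 8.01 to 8.04 FPKM in the control, 18.5 to 19.6 with PRDX1, 12.1 to 13.5 with RANKL and 23.8 to 24.0 with both. Ccl22 was at most 0.080 FPKM in the control, 1.27 and 1.004 with PRDX1, 0.893 and 1.81 with RANKL, and 3.03 and 3.12 with both agents. Flt3 was 0.223 to 0.512 FPKM throughout, and Ccl17 had at most 2 reads in every library. Most of the sum was Itgax, which macrophages also express, at 5.27 to 15.6 FPKM. Cd209a, which also passed the filter, went the other way, from 1.488 and 1.006 FPKM in the control to 0.499 and 0.420 with both agents. Their part in the change of Ccr7 was not tested. Genes nearest to Ccr7 in pattern were H2-K2, Ptges and Tmem26, at 0.11, 0.11 and 0.14.

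The make-up of receptor mRNA differed between the groups. The summed level of the 7 was 199 ± 10.1 FPKM in the control, 219 ± 5.29 with PRDX1, 136 ± 7.85 with RANKL and 159 ± 0.166 with both (mean ± SD, n = 2). In the control Cx3cr1 made up 48.9% ± 0.933 of the sum and Ccr1 13.5% ± 1.45. With PRDX1 alone, Ccr1 was 29.5% ± 1.22, Ccr2 29.4% ± 0.507 and Cx3cr1 22.7% ± 1.48.

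With RANKL alone Ccr1 led at 38.7% ± 1.23, whereas with both agents Ccr2 led at 29.6% ± 0.712, before Cx3cr1 at 27.6% ± 0.854 and Ccr1 at 23.3% ± 0.366. Cxcr4 was 8.06% ± 0.766 with RANKL alone and 15.1% ± 0.0948 with both agents. Ccr3, Ccrl2 and Ccr7 each stayed at or under 3.26% in the group means.

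**Figure D3:**
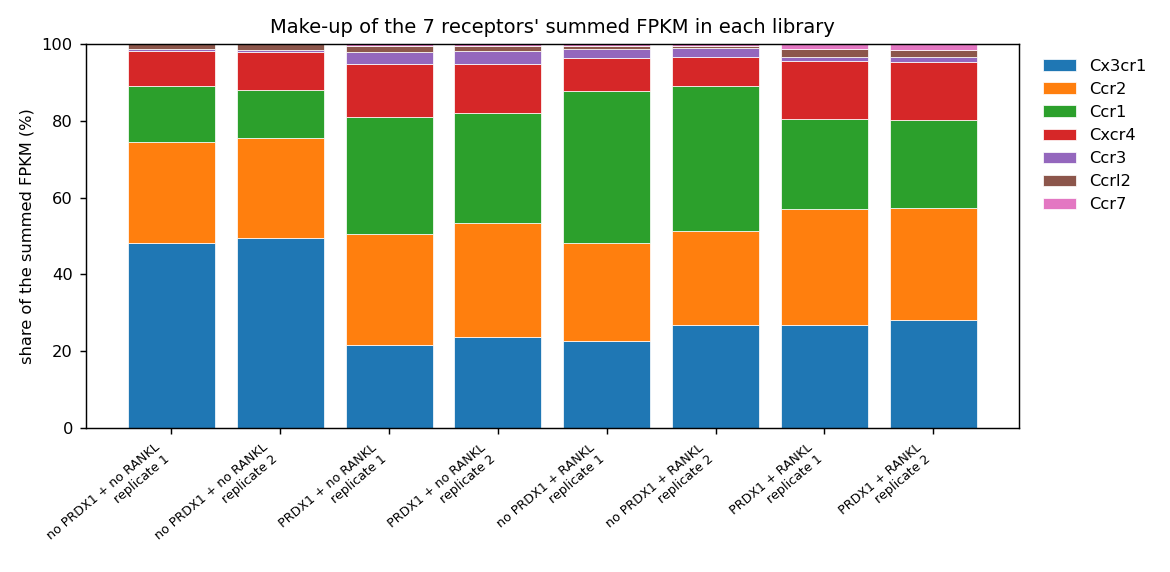
Share of each receptor in the summed FPKM of the 7 (vertical axis, percent) in each of the 8 libraries, 2 per group. Cx3cr1, at the foot of each bar, is the largest share in the control at 48.9%, and Ccr1 is the largest share with RANKL alone at 38.7%.

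Ligands of these receptors were taken from a list of 16, of which 10 were tested, and 6 (Ccl8, Ccl11, Ccl19, Ccl21a, Ccl24 and Cx3cl1) stayed at or under 0.456 FPKM in every library. The only listed ligand of Cx3cr1 and both ligands of Ccr7 were thus under the filter in these cultures. PRDX1 without RANKL called 5 ligands higher and 0 lower (5.79% of all genes called), PRDX1 with RANKL 7 higher and 0 lower (10.2%), and RANKL without PRDX1 2 higher and 6 lower (21.8%). The median ligand change was 0.58, 1.86 and -2.76 in these comparisons.

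Several ligands varied by larger ratios between groups than any receptor except Ccr7, but Ccl9 and Rarres2 varied by smaller ratios than all the receptors. Ccl7, a ligand of Ccr2 that also binds Ccr1 and Ccr3, averaged 75.1 FPKM in the control, 290 with PRDX1, 4.18 with RANKL and 42.0 with both. Its log2 change was 1.94 with PRDX1 alone and -3.87 with RANKL alone. Ccl5, a ligand of Ccr1 and Ccr3, rose from 1.88 FPKM in the control to 39.1 with PRDX1, 8.68 with RANKL and 40.7 with both, whereas Ccr1 and Ccr3 were lower with both agents than with PRDX1 alone. Ccl9, which acts on Ccr1, averaged 347 FPKM in the control, 413 with PRDX1, 569 with RANKL and 404 with both. It was the most abundant listed ligand in every group except PRDX1 alone.

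**Figure D4:**
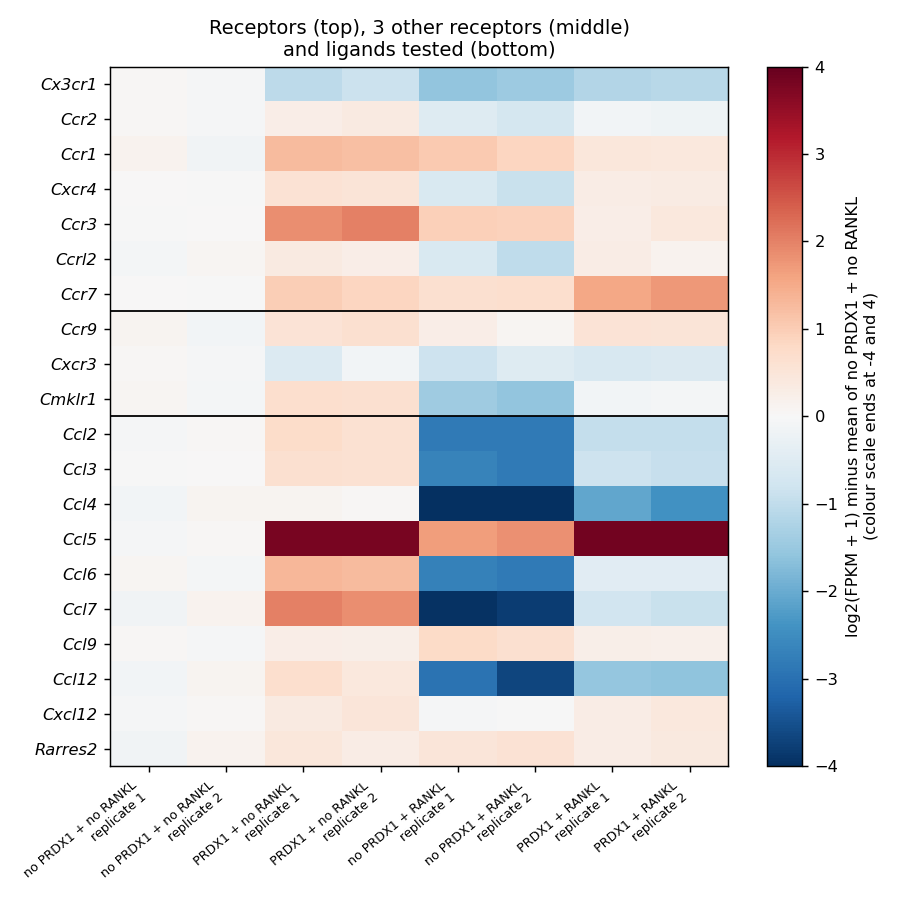
Color shows log2(FPKM + 1) of each library (columns) minus the control mean, for the 7 receptors (top rows), 3 other receptors (middle) and the ligands tested (bottom). The color scale ends at -4 and 4. Most CC ligands are blue with RANKL alone, where Ccr1 and Ccr3 are red.

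Among other chemokine receptors in a list for comparison, 15 had at most 0.955 FPKM in any library and were not tested. Cmklr1, the signaling receptor for chemerin, averaged 9.44 FPKM in the control, 15.4 with PRDX1, 2.70 with RANKL and 8.71 with both. Like Ccrl2, which binds the same ligand, it was lower with RANKL alone, at -1.49, and higher when PRDX1 was added, at 1.39. Ccr9 and Cxcr3 averaged at most 0.883 and 2.75 FPKM in any group.

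Downstream of the receptors, 35 genes of G protein signaling were tested. PRDX1 without RANKL called 1 higher and 0 lower, against 5.79% of all genes, and PRDX1 with RANKL called 2 higher and 0 lower, against 10.2%. RANKL without PRDX1 called 3 higher and 6 lower, a share near the 21.8% of all genes. Rgs1, which turns off the G proteins of chemokine receptors, changed by 1.23, 2.78 and -2.97 in these comparisons. Pik3r5, a regulatory subunit of the PI3-kinase that these receptors activate, rose by 1.91 with RANKL, while the catalytic Pik3cg and the arrestin Arrb2 fell.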

How the data were processed

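RNA of 8 cultures was sequenced as paired 100-base reads. Per the labels, the authors aligned reads with HISAT2 and counted them on RefSeq exons of mm10 with HOMER, on both strands, and deposited FPKM of 1 transcript per gene. Versions were not given in the sources used here. FPKM times transcript length gave whole reads within 0.15 for 99.4% to 99.9% of the genes checked per library. These reads were used only for read counts and for voom.

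Values of log2(FPKM + 1) for 11700 genes (mean of at least 0.5 FPKM) were fitted by limma 3.58.1 (R 4.3.3) with trended variances, 1 coefficient per group and 4 residual degrees of freedom. The 6 pairwise comparisons and the interaction were tested. Named genes were the 7 receptors, up to 3 called genes with the largest change per list and comparison, and the 3 genes nearest in pattern to each receptor; Ccl9, Ccr9, Pik3cg and Arrb2 were added after their values were seen. The receptors and lists were chosen with earlier results of these data known. Alternatives were another pseudocount, no filter, only the 2 groups compared, quantile and upper-quartile normalization, voom, a replicate block and leaving out each library. Exact runs shared between genes were sought with blastn among GENCODE transcripts of mouse. Some results of the lists are not reported here. Read floors (3 reads) and counts cover counting error only.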

Additional observations from a re-analysis of the deposited data

Results flagged for a closer look

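For 4 of the 7 receptors, against 8.85% of all genes tested, the effect of PRDX1 differed with RANKL by the interaction test of limma. The interaction on log2(FPKM + 1) was -1.73 for Ccr1, -2.55 for Ccr3, 1.34 for Cx3cr1 and 0.73 for Ccrl2. For Ccr1, Ccr3 and Cx3cr1 the effect of PRDX1 also had opposite signs without and with RANKL, and for Ccrl2 it was positive in both and larger with RANKL, a call that was lost without any 1 of several libraries. Osteoclast markers moved with these groups too, and their part in the interaction was not tested.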

How the results depend on the processing

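For single receptors, 728 values were recomputed under the alternatives. Of these, 707 kept their direction and stayed called or not called, 10 lost and 8 gained a call, and 3 changed sign. The 3 were the interaction of Ccr7, which was -1.14 with a pseudocount of 0.1, -2.18 with voom and -0.0195 without PRDX1 + RANKL replicate 2, with a range of -0.0195 to 0.1696 when each library was left out in turn. The cause was not tested. A call takes both thresholds together, so a value under the fold threshold could cross the adjusted p threshold and still count among the 707. For Cxcr4, RANKL with PRDX1 had a limma adjusted p of 0.0408 in the main fit. It reached 0.101 in the alternatives that left out no library. Numbers of receptors called stayed within 1.5 times the main number, from 3 to 5 for the interaction and from 6 to 7 for RANKL without PRDX1. Deviations of same-numbered replicates were only weakly correlated between groups (0.008 to 0.096), which cannot settle whether the cultures were paired. Replicate numbers are those of the labels, and the directory names in the file header carry other numbers for some libraries. The replicate block changed 0 receptor calls, with 4 called for PRDX1 without RANKL. Leaving out a library left a group with 1 culture, which was assumed to vary like the others. Normalization shifted the median of all genes by under 0.1. Ccr7 had the fewest reads, 4 to 206, and Ccrl2 the largest standard errors, 0.13 in the pairwise comparisons and 0.19 in the interaction.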
